A study of Zea mays with 6 samples.

Results

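The SBP-box genes tsh4, ub2, ub3, lg1 and tga1 of maize (Zea mays) were followed in RNA-seq of anthers labelled as stages S3 to S5. They were taken by identifier, as 5 rows of the 46430 rows of a table of read counts per gene: Zm00001d020941 (tsh4), Zm00001d031451 (ub2), Zm00001d052890 (ub3), Zm00001d002005 (lg1) and Zm00001d049822 (tga1). The wild-type group (WT, genotype code AA) had 3 libraries. The other group (zmrpn1, genotype code aa) also had 3 libraries, from plants labelled as a ZmRPN1 knockout, with Mutator, the name of a group of mobile elements in maize that is widely used for insertional mutagenesis, in the sample titles. The series' design text gives the allele as zmrpn1-1, and its title ties ZmRPN1 to the number of pollen grains. Both groups share the tissue and stages. The labels name no inbred background, do not say how plants were grown or pooled, and leave it unstated whether WT and mutant plants came from the same families. The p-values below therefore describe the variation among 6 libraries, which may be partly technical.

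SBP-box proteins are plant-specific transcription factors that bind DNA through the conserved SBP domain, which holds zinc ions. Many of their mRNAs are cut or silenced by the microRNA miR156, and some also by miR529, so that the genes act as timers and as boundary regulators in shoots and inflorescences. In maize tsh4 (tasselsheath4) represses bract growth and sets the boundary between leaf and meristem, and ub2 and ub3 (unbranched2 and unbranched3) act redundantly with it in setting the number of tassel branches and of kernel rows. The lg1 gene (liguleless1) is needed for the ligule and auricle, the hinge between leaf blade and sheath, and tga1 (teosinte glume architecture1) controls the hardened case around the kernel of teosinte. These roles are background from other tissues, and none was examined in anthers here.

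All 5 genes were detected in all 6 anther libraries, and none was called different between zmrpn1 and WT. Anthers are a mixture of cell types, and in such bulk samples a change in the number of cells of a type and a change in RNA per cell cannot be told apart. The numbers of reads were modest, from 178 counts over the 6 libraries for tga1 to 929 for tsh4. Library totals ran from 16203290 to 29515176 counts, and levels are given as CPM, the reads of a gene scaled to library size, with library sizes adjusted by the trimmed mean of M-values (TMM). All 5 rows passed the filter on low counts. Over all rows together 2922 of 23477 tested genes, 12.4%, had a Benjamini-Hochberg adjusted p under 0.05 in edgeR's quasi-likelihood test, which is the threshold for a call, and of the SBP-box genes 0 of 5 did. Called genes were higher in zmrpn1 in 6.63% of the tested genes and lower in 5.82%, again against 0 of the 5 genes in each direction. At an unadjusted p under 0.05, which 23.4% of all tested genes reached, 1 of the 5 genes, tsh4, passed in edgeR. DESeq2, which called 9.79% of the tested genes, and limma-voom, which called 12.0%, also called 0 of the 5. Groups of CPM values that did not overlap were found in 27.0% of all tested genes and in 0 of the 5. In mean level the 5 genes ranged from percentile 10.4 (tga1) to 31.2 (tsh4) of the tested genes. Standard errors tend to be larger there, so a call needs a larger difference. With only 5 genes, a count of 0 beside these shares does not set them apart from other genes.

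Identities rest on the pairing of names with identifiers by which the genes were chosen, since the count table holds no names and none of its 44146 nuclear identifiers matched the RefSeq gene table, which was built on Zm-B73-REFERENCE-NAM-5.0. That table names 4 of the 5 genes, all but tsh4. For these 4 the microRNA precursor rows that flank the identifier in the count table also flank the named gene in that assembly: MIR482 and MIR166i for ub2, MIR164f and MIR399a for ub3, MIR396c and MIR395d for lg1, and MIR2275b and MIR169i for tga1. The previous and next precursor rows lay 662 and 1342 rows away for ub2 and 706 and 582 for ub3. They lay 151 and 120 rows away for lg1 and 307 and 42 for tga1. This places the rows in matching but wide stretches of the genome and does not establish each name. In the count table the tsh4 row lies between MIR156j and MIR169k. The labelled tissue was not checked against anther or leaf markers, because 0 of 14 marker names sought (8 of the anther wall, 6 of leaf) could be tied to a row, and the level of ZmRPN1 itself was not analysed here.

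The tsh4 gene was counted with the most reads of the 5 and had the largest estimated difference. Its level was 7.42, 6.76 and 5.39 CPM in WT replicates 1, 2 and 3, and 7.67, 8.42 and 7.33 CPM in zmrpn1 replicates 1, 2 and 3. The 2 lowest libraries were WT and the 2 highest were zmrpn1, but zmrpn1 replicate 3 lay just below WT replicate 1, so the groups overlapped. The means were 6.52 ± 1.04 CPM in WT and 7.81 ± 0.558 CPM in zmrpn1 (SD, n = 3 each). The fitted log2 value of zmrpn1 against WT was 0.28 with a standard error of 0.13, or 1.21-fold (95% interval 1.01 to 1.46, not adjusted for the number of genes), and the adjusted p of edgeR was 0.199. Much of this estimate lay in WT replicate 3, without which it was 0.13 (edgeR adjusted p = 0.661). Without WT replicate 1 it was 0.39 (edgeR adjusted p = 0.101).

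The lg1 gene gave a similar estimate from a similar set of libraries. Its level was 6.33, 5.58 and 4.64 CPM in WT replicates 1, 2 and 3, and 5.61, 6.80 and 7.02 CPM in zmrpn1 replicates 1, 2 and 3. WT replicate 3 was the lowest library, as for tsh4, and zmrpn1 replicates 2 and 3 were the highest, while zmrpn1 replicate 1 fell among the WT values. The means were 5.52 ± 0.846 and 6.48 ± 0.762 CPM (SD, n = 3 each). The log2 value was 0.26 with a standard error of 0.14, or 1.19-fold (95% interval 0.976 to 1.46), and the adjusted p of edgeR was 0.294. It was 0.12 without WT replicate 3 (edgeR adjusted p = 0.728) and 0.37 without WT replicate 1 (edgeR adjusted p = 0.163).

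**Figure D1:**
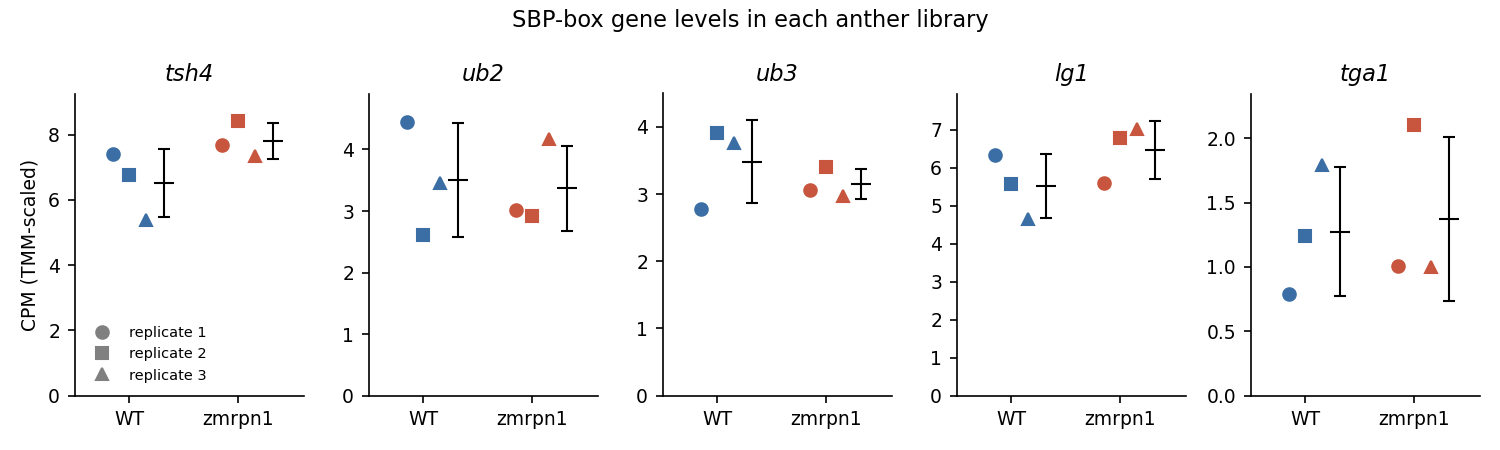
CPM (TMM-scaled, linear axis from 0, a separate scale in each panel) of the 5 SBP-box genes in each library, with WT in blue, zmrpn1 in red, replicates by symbol, and the mean ± SD of each group in black (n = 3). In each panel the WT and zmrpn1 values overlap, and tga1 shows the widest spread relative to its mean.

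The paralogs ub2 and ub3 showed no difference beyond the spread between libraries, and the order of the libraries differed between them. The level of ub2 was 4.45, 2.60 and 3.46 CPM in WT replicates 1, 2 and 3, and 3.01, 2.92 and 4.17 CPM in zmrpn1 replicates 1, 2 and 3. Both the lowest and the highest of the 6 libraries were WT, so the zmrpn1 values lay within the WT range. The means were 3.50 ± 0.925 and 3.37 ± 0.695 CPM (SD, n = 3 each), with a log2 value of -0.05, a standard error of 0.19 and an edgeR adjusted p of 0.916. The 95% interval of the fold ran from 0.733 to 1.26.

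The level of ub3 was 2.77, 3.90 and 3.76 CPM in WT replicates 1, 2 and 3, and 3.07, 3.40 and 2.97 CPM in zmrpn1 replicates 1, 2 and 3. Again the zmrpn1 libraries lay inside the WT range, and WT replicate 1, the highest library for ub2, was the lowest for ub3. The means were 3.48 ± 0.618 and 3.15 ± 0.224 CPM (SD, n = 3 each), with a log2 value of -0.15, a standard error of 0.18 and an edgeR adjusted p of 0.703. The 95% interval of the fold ran from 0.697 to 1.17. The estimate was -0.28 without WT replicate 1, -0.08 without WT replicate 2 and -0.07 without WT replicate 3 (edgeR adjusted p = 0.458, 0.912 and 0.902). These genes are close in sequence, and the treatment of reads that match more than one gene is not stated in the labels or the file, so their separate values are uncertain to that extent.

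The tga1 gene was the most sparsely counted and the most variable. It had 16, 20 and 53 counts in WT replicates 1, 2 and 3, and 19, 44 and 26 counts in zmrpn1 replicates 1, 2 and 3. These are 0.791, 1.24 and 1.80 CPM in WT and 1.00, 2.11 and 1.00 CPM in zmrpn1. A single library in each group, WT replicate 3 and zmrpn1 replicate 2, stood above the others, and the highest library was 2.66 times the lowest. The means were 1.28 ± 0.503 and 1.37 ± 0.636 CPM (SD, n = 3 each), with a log2 value of 0.05, a standard error of 0.32 and an edgeR adjusted p of 0.959. The 95% interval of the fold, 0.66 to 1.61, is the widest of the 5 genes, and the estimate was -0.39 without zmrpn1 replicate 2 and 0.45 without WT replicate 3 (edgeR adjusted p = 0.572 and 0.557).

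**Figure D2:**
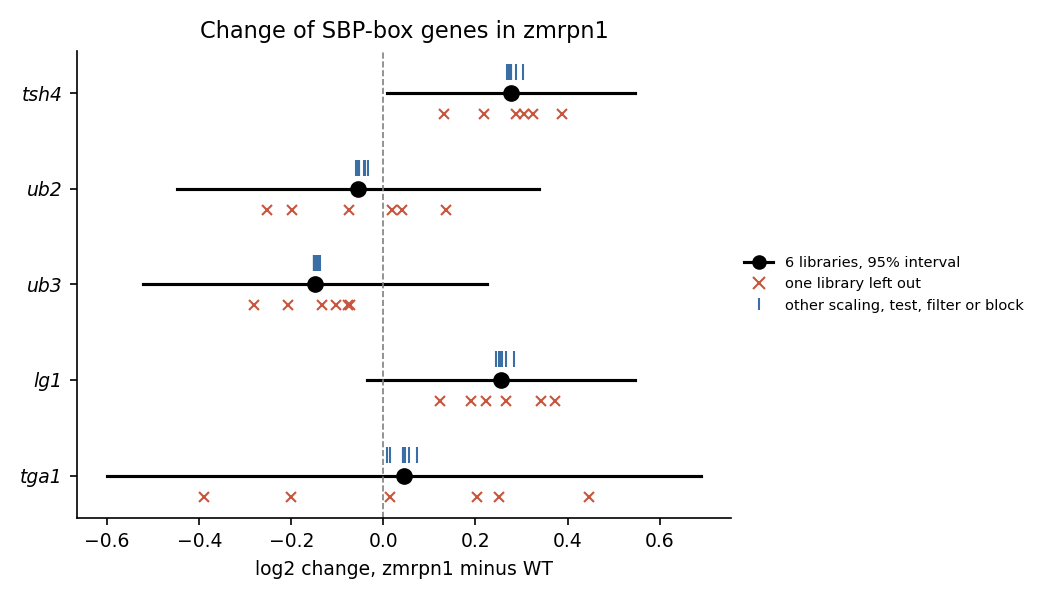
Log2 change of zmrpn1 against WT for each SBP-box gene (black points, edgeR, with 95% intervals as lines), with the values after leaving out 1 library (red crosses) and under other scalings, tests, filters or the replicate block (blue ticks). The crosses of tsh4 and lg1 stay above 0 and those of ub3 below 0, while ub2 and tga1 fall on both sides.

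The 95% intervals, not adjusted for the number of genes, give a range of differences for each gene under the fitted model. Differences outside them are not excluded. For tsh4, lg1, ub2 and ub3 the 95% intervals lay within a 1.5-fold difference in either direction, the widest reaching 1.46-fold higher (tsh4 and lg1) and 1.44-fold lower (ub3). For tga1 they allowed 1.61-fold higher and 1.52-fold lower. Of the 5 log2 values 3 were positive and 2 negative, with a median of 0.05 and a median absolute value of 0.15. Over all tested genes 11825 were positive and 11652 negative, with a median of 0.00122 and a median absolute value of 0.10. The 5 genes lay at low mean levels, where estimates scatter more, so the median absolute values are not compared at a like level.

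**Figure D3:**
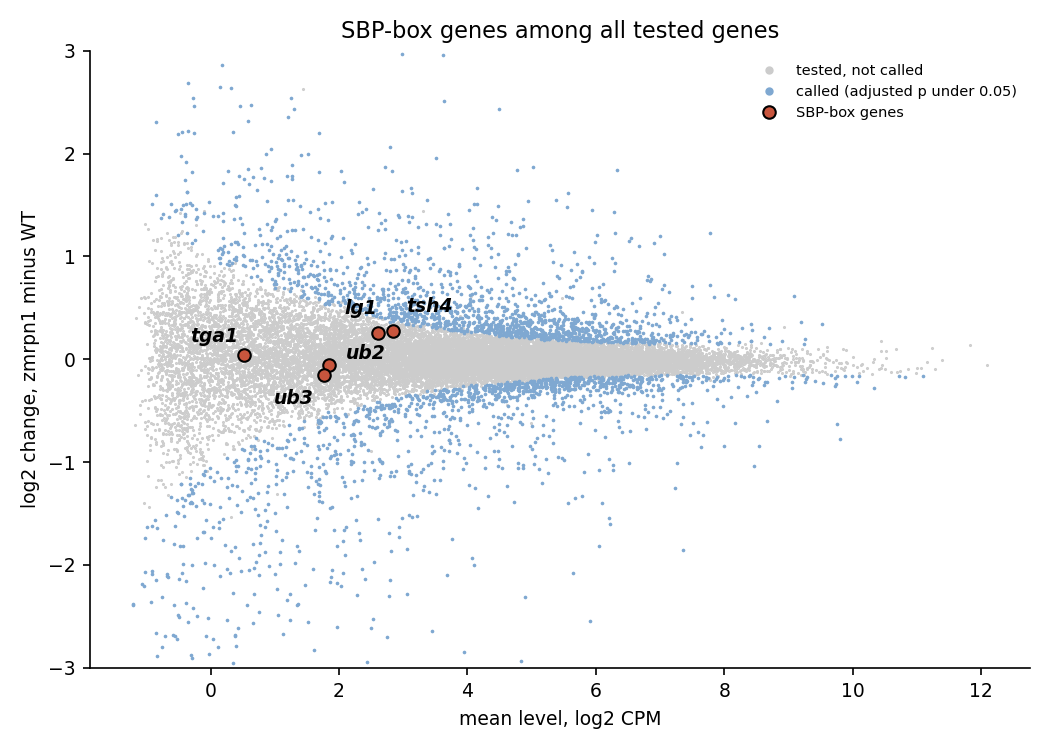
Log2 change of zmrpn1 against WT against mean level (log2 CPM) for the tested genes, with called genes in blue and the 5 SBP-box genes in red (61 genes beyond 3 log2 units in either direction are not drawn). The SBP-box genes lie in the grey cloud of genes that were not called, below a mean level of 3 log2 CPM.

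Spread between libraries of a group was estimated above what counting alone gives for most of the genes. The variance of counts relative to that of pure counting was 4.58 in WT and 6.39 in zmrpn1 for tga1, and 4.39 and 3.32 for ub2. It was 4.19 and 0.904 for tsh4, 3.25 and 1.83 for lg1, and 2.21 and 0.355 for ub3. All 5 genes were above 2 in WT, and tsh4 and ub3 were below 1 in zmrpn1. Each value rests on 3 libraries and can differ from 1 by counting alone, so a value such as 2.21 does not show extra spread. A difference in spread between the groups was not tested. Over all tested genes the median ratio was 1.56 in WT and 1.75 in zmrpn1, and 95% of genes lay below 8.95 and 12.6. The biological coefficient of variation that edgeR assigned was 8.1% for tsh4, 8.67% for lg1, 10.4% for ub3, 11.9% for ub2 and 18.8% for tga1. The trend at the same level gave 7.82%, 8.33%, 10.7%, 10.6% and 14.3%, so tga1 stood furthest above its trend.

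Added together, the 5 genes took 21.8, 20.1 and 19.0 CPM in WT replicates 1, 2 and 3 and 20.4, 23.6 and 22.5 CPM in zmrpn1 replicates 1, 2 and 3. Their group means were 20.3 ± 1.37 and 22.2 ± 1.67 CPM (SD, n = 3 each). The groups overlapped, since zmrpn1 replicate 1 lay between WT replicates 2 and 1. Transcript lengths on the build of the count table were not used here, so CPM values do not rank one gene against another.

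Ratios of counts within a library do not depend on scaling between libraries and were compared for all 10 pairs of the 5 genes. The groups overlapped in all 10, the two-sided exact permutation p was 0.3 or more for each (3 against 3 libraries cannot go below 0.1), and the Benjamini-Hochberg adjusted p was 1 for each. The ratio of tsh4 to lg1 counts varied least, at 1.17, 1.21 and 1.16 in WT replicates 1, 2 and 3 and 1.37, 1.24 and 1.04 in zmrpn1 replicates 1, 2 and 3. The log2 ratios differed by 0.03 between groups (exact permutation p = 0.7).

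The ratio of tsh4 to ub3 counts was 2.68, 1.73 and 1.43 in WT replicates 1, 2 and 3 and 2.50, 2.48 and 2.47 in zmrpn1 replicates 1, 2 and 3. The zmrpn1 libraries were nearly equal, with an SD of 0.0086 log2 units where counting error alone would give about 0.208, and WT replicate 1 lay above all of them. The group means of the log2 ratio were 0.91 ± 0.46 in WT and 1.31 ± 0.01 in zmrpn1 (SD, n = 3 each), a difference of 0.40 (two-sided exact permutation p = 0.4), which ran from 0.21 to 0.65 when 1 library was left out. The ratio of tsh4 to ub2 counts was 1.67, 2.60 and 1.56 in WT replicates 1, 2 and 3 and 2.54, 2.89 and 1.76 in zmrpn1 replicates 1, 2 and 3. Its log2 value differed by 0.31 (two-sided exact permutation p = 0.3), or by 0.16 to 0.54 when 1 library was left out. The ratio of ub2 to ub3 counts crossed 1 in both groups, with 1.61, 0.667 and 0.919 in WT and 0.983, 0.859 and 1.40 in zmrpn1.

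**Figure D4:**
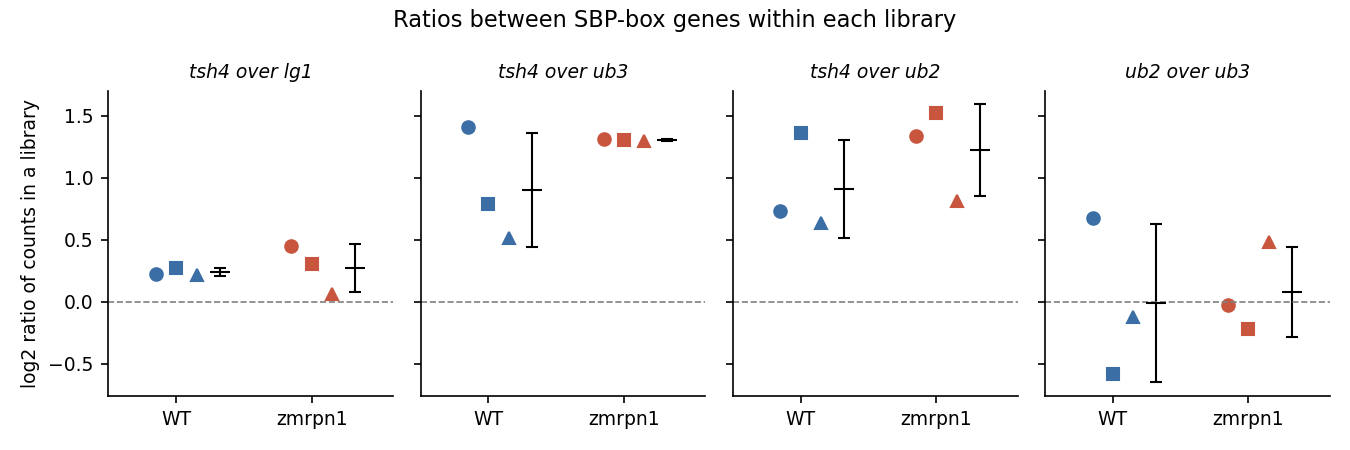
Log2 ratio of read counts of one SBP-box gene to another within each library, for 4 pairs, with WT in blue, zmrpn1 in red, replicates by symbol, and mean ± SD in black (n = 3). The zmrpn1 values of tsh4 over ub3 are nearly equal, the WT values of tsh4 over lg1 are close together, and the groups overlap in each panel.

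Precursor rows of microRNAs that act in the same pathway as SBP-box genes held no counted reads. The count table has 11 rows for MIR156 precursors and 1 for MIR529, whose mature forms target SBP-box mRNAs. It has 4 rows for MIR172, whose mature form acts later in the same timing pathway, on AP2-type mRNAs. All 16 rows held 0 counts in every library, as did all 154 microRNA precursor rows of the table. No precursor could therefore be tested, by edgeR or by the other tools. Rows at 0 throughout the class say nothing about mature microRNAs, which standard RNA-seq libraries are not made to capture. The counting rule for reads over precursors is not stated in the labels or the file.

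Rows next to an SBP-box gene in the count table held differing numbers of called genes. Among the 25 tested rows on each side, 13 of 50 were called around tsh4 (26%, with 7 higher and 6 lower in zmrpn1), against 12.4% of all tested genes. Around lg1 8 of 50 were called (3 higher, 5 lower), and around ub2 7 of 50 (7 higher, 0 lower). Around ub3 4 of 50 were called (1 higher, 3 lower), and around tga1 4 of 50 (4 higher, 0 lower). With 10 tested rows on each side the count around tsh4 was 8 of 20. These counts are a description of neighbouring rows, whose expression may not be independent, and no test was made of them. The tested rows directly after tsh4 (Zm00001d020946, log2 value -0.18, edgeR adjusted p = 0.0461) and directly before lg1 (Zm00001d002004, log2 value -0.19, edgeR adjusted p = 0.0482) were called as lower in zmrpn1, while tsh4 and lg1 had positive values.

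**Figure D5:**
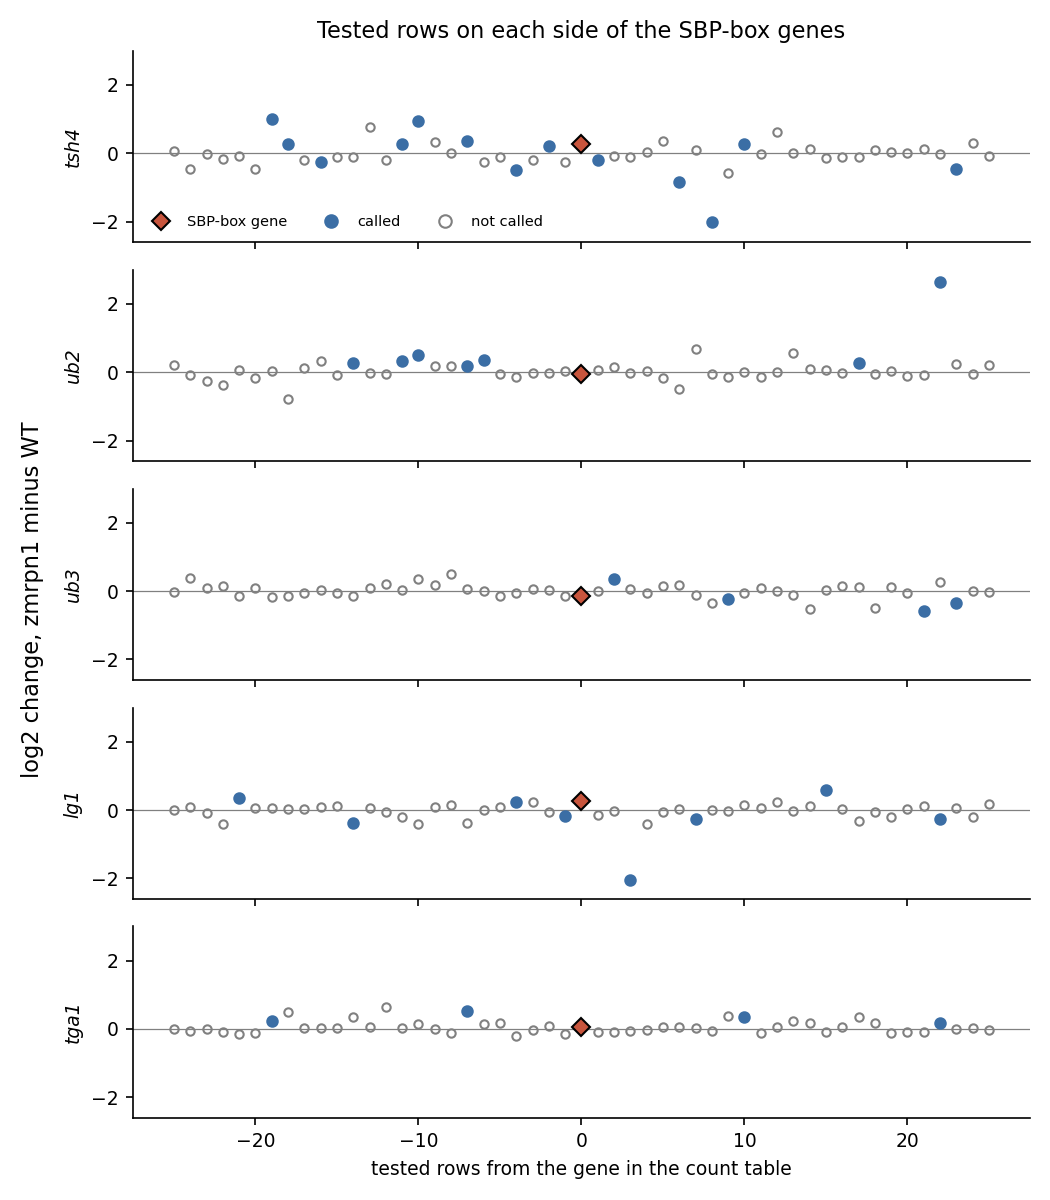
Log2 change of zmrpn1 against WT for the 25 tested rows on each side of each SBP-box gene, in the order of the count table, with called rows filled blue, other rows open and the SBP-box gene as a red diamond. The panel of tsh4 holds the most called rows, 13 of 50, on both sides of 0.

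The genes whose pattern over the 6 libraries was most like that of each SBP-box gene were found by Pearson correlation of log2 CPM among genes whose mean was 1 log2 CPM or more, which were 20130 candidates for each gene but tga1 and 20131 for tga1. The files do not pair these identifiers with names. For tsh4 the closest were Zm00001d022449 (r = 0.986) and Zm00001d038676 (r = 0.985), and for lg1 Zm00001d029896 (r = 0.995) and Zm00001d010304 (r = 0.984). For ub2 they were Zm00001d033983 (r = 0.994) and Zm00001d047271 (r = 0.992), for ub3 Zm00001d033092 and Zm00001d018669 (r = 0.992 for both), and for tga1 Zm00001d037362 and Zm00001d009196 (r = 0.987 for both). High values were not confined to these genes, since from 72 (for tga1) to 227 (for lg1) of the candidates had r above 0.9. With 6 libraries and so many candidates, a high r is weak evidence of a link. None of the 10 genes was called by edgeR, with adjusted p from 0.0596 to 0.992, against 12.4% of all tested genes. They were chosen for following members that were not called, so this is no separate result.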

How the data were processed

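Total RNA of 3 WT and 3 zmrpn1 anther samples was DNase-treated, and libraries were prepared with NEBNext Ultra II RNA reagents, per the labels' protocols. Tools listed in the submitters' processing notes are featureCounts 1.6.4, HISAT2 2.2.1, Trimmomatic 0.39, DESeq2 and StringTie 1.3.6, with the build B73 RefGen_v4. Strand and multi-mapping settings are not given in the sources used here. The authors deposited raw counts for each gene as whole numbers, without normalization, and columns were matched to samples by genotype code and replicate number.

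Counts were fitted over the whole table with edgeR 4.0.16 (R 4.3.3): filterByExpr with a minimum count of 10, TMM, a robust quasi-likelihood F test, Benjamini-Hochberg adjustment over 23477 genes and a threshold of 0.05. Standard errors are the log2 value divided by the square root of F, and 95% intervals use the moderated degrees of freedom. Ratios used counts plus 0.5. The fits were run on simulated data with the same spread for all genes, lower than the spread edgeR assigned to the SBP-box genes. That run therefore does not show how well small differences in these genes are found. Alternatives were other scalings, DESeq2 1.42.0, limma-voom (limma 3.58.1), other filters, the replicate block and each library left out.

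Libraries of a group differed by more than sampling noise (chi-square per degree of freedom 2.00 to 4.65), and each was counted as 1 replicate. That excess does not show whether the libraries came from separate plants. The common biological coefficient of variation in edgeR was 5.16%. The labels give no batch or date. Named genes were the 5 members, microRNA precursors with at least 10 counts (none had any) and the 2 genes most like each member. The neighbouring rows named are those that adjoin a member and were called, chosen after their values were seen. The members and lists were chosen with earlier results of these data known.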

Additional observations from a re-analysis of the deposited data

How the results depend on the processing

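In the 14 alternative fits (edgeR, DESeq2 and limma-voom) 0 of the 5 SBP-box genes were called. Over these fits the lowest adjusted p was 0.101 (tsh4, without WT replicate 1). The sign of the log2 value held in all 14 for tsh4, lg1 and ub3, whose values with 1 library left out ran from 0.13 to 0.39, 0.12 to 0.37 and -0.28 to -0.07. Leaving out 1 library moved ub2 between -0.25 and 0.14 and tga1 between -0.39 and 0.45, with the sign turned in 3 fits of ub2 and 2 of tga1. With 1 library left out, the difference of log2 ratios ran from -0.054 to 0.14 for tsh4 over lg1, from -0.23 to 0.58 for tsh4 over tga1, from -0.20 to 0.43 for ub2 over ub3, from -0.47 to 0.36 for ub2 over tga1, from -0.43 to 0.078 for ub3 over tga1 and from -0.25 to 0.55 for lg1 over tga1. The sign of the other 4 pairs held, with ranges of 0.21 to 0.65 for tsh4 over ub3, 0.16 to 0.54 for tsh4 over ub2, -0.49 to -0.15 for ub2 over lg1 and -0.62 to -0.18 for ub3 over lg1. The number of pairs whose groups did not overlap ran from 0 to 2 of 10: tsh4 over ub3 and ub3 over lg1 without WT replicate 1, tsh4 over ub2 and ub2 over lg1 without WT replicate 2, ub3 over tga1 without WT replicate 3, and tsh4 over lg1 without zmrpn1 replicate 3. With fewer libraries, groups overlap less often by construction. Counts of called genes over the whole table ran from 2261 to 2672 with 1 library left out.

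With replicate numbers fitted as a block, 3005 genes were called in all and 0 of the SBP-box genes, tsh4 having an edgeR adjusted p of 0.197. The pairing by number has no footing in the data: libraries with the same number had deviations from their group means that correlated at -0.0374, 0.0198 and 0.0306. The share of called rows around the 5 genes together was 14.4% with 25 tested rows on each side and 19% with 10, against 12.4% of all tested genes. Rows around tsh4 had the highest shares, 26% and 40%. Around the other genes the shares ran from 8% to 16% and from 10% to 20%. The fewest reads, 178 counts in all, stood behind tga1, whose spread within each group also went beyond counting error (4.58 times the counting variance in WT and 6.39 times in zmrpn1).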
